A study of Mus musculus with 2 samples.

Results

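The subunits of oxidative phosphorylation that are encoded in the nucleus were examined in primary mouse myoblasts on 2 arrays, 1 from control cells and 1 from cells given Wnt3a. Members were the genes whose symbols start with Ndufa, Ndufb, Ndufc, Ndufs or Ndufv (complex I), Uqcr (complex III), Cox4i, Cox5, Cox6, Cox7 or Cox8 (complex IV) or Atp5 (complex V, the ATP synthase), together with Sdha, Sdhb, Sdhc and Sdhd (complex II) and Cyc1 (complex III), without the Ndufaf assembly factors. This gave 83 of the 18193 genes on the array, with 170 probe sets: 36 genes of complex I, 4 of complex II, 9 of complex III, 17 of complex IV and 17 of complex V. The brightest probe set of each gene, by the mean of both arrays, stood for that gene as log2(intensity + 1). A gene is called measured here if this value was at least 6 on either array, a floor that corresponds to an intensity of 63 and says nothing of whether a transcript is present below it. Of the 83 members 79 were measured, against 11397 of all genes. Some known subunit genes were not analysed here, and 10 probe sets assigned to a subunit gene together with another gene were left out.

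The myoblasts, muscle precursor cells, came from newborn Sv129 mice and were grown on laminin and collagen. Both groups spent 4 hours in a medium low in serum (2% horse serum in DMEM). The control group received nothing else, and the Wnt3a group received recombinant Wnt3a at 100 ng/ml, a secreted ligand that stabilises β-catenin. There was 1 array per condition, so each value is a single measurement, no difference has a replicate check and no test of any difference was possible. In RNA from a whole culture, fewer cells of a type and less RNA per cell cannot be told apart. All 5 myoblast markers listed were well above the floor, 3 of them higher with Wnt3a, Myf5 (11.96 to 12.45), Des (10.91 to 11.23) and Cdh15 (11.59 to 11.61), and 2 lower, Myod1 (13.41 to 13.28) and Pax7 (11.20 to 11.08). None of the 4 fibroblast, 3 cardiac muscle or 2 adipocyte markers on the array reached the floor, and 1 of 3 leukocyte and 1 of 3 endothelial markers did.

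Oxidative phosphorylation makes ATP in the inner mitochondrial membrane. Complexes I and II pass electrons from NADH and succinate to coenzyme Q, complex III passes them to cytochrome c and complex IV to oxygen, and the proton gradient built by complexes I, III and IV drives the ATP synthase. A few subunits are encoded in mitochondrial DNA, and the others, described here, are nuclear genes whose transcription is classically tied to the factors NRF1, GABPA, the oestrogen-related receptors and YY1 and to the coactivator PGC-1α. Muscle fibres are rich in these complexes and carry muscle forms of some complex IV subunits.

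The subunit transcripts hardly differed between the arrays. On its brightest probe set, no measured member differed by 1.2-fold in either direction. Of all measured genes, 4.04% were higher with Wnt3a by that much and 4.55% were lower by that much. Differences, given throughout as Wnt3a minus control on the log2 scale, ran from -0.25 for Cox7c to 0.24 for Cox8a. The median over the 79 members was 0.026, beside -0.0057 over all measured genes. Higher values with Wnt3a were found for 49 members (62.0%), lower values for 29 and identical values for 1, against 47.3% of all measured genes higher and 51.2% lower. At least 1.1-fold higher were 5 members, Cox8a, Cox8c, Ndufs5, Ndufb1 and Atp5g2 (6.33%, against a background of 13.4%), and at least 1.1-fold lower were 2, Cox7c and Ndufa5 (2.53%, against 16.7%). Neither pair of shares was tested against each other.

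**Figure D1:**
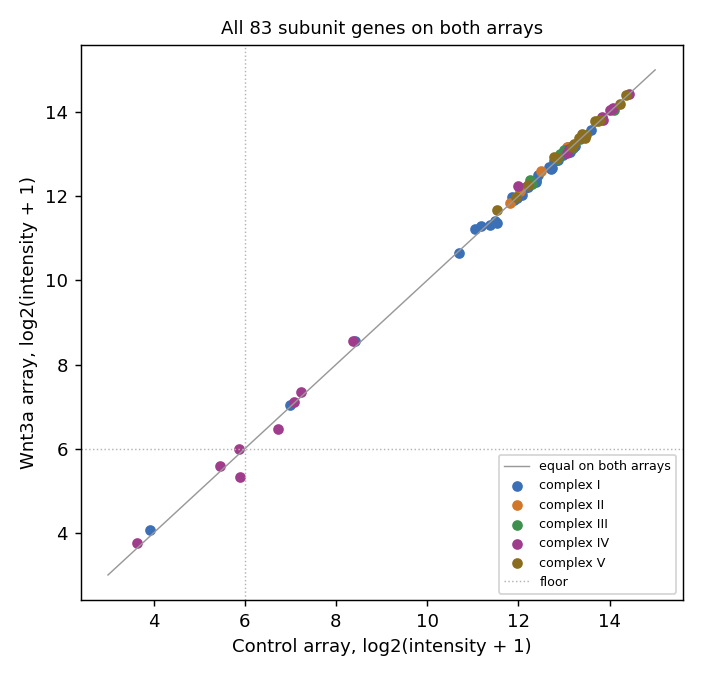
Level of each of the 83 subunit genes on the control array (horizontal) and the Wnt3a array (vertical), both as log2(intensity + 1), coloured by complex, with the line of equal values and dotted lines at the floor of 6. Nearly all points lie on the line, most of them above 12, and the 4 unmeasured genes lie in the lower left corner.

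The small differences come with high brightness. The members' probe sets were bright, with a median level (mean of both arrays) of 12.86 against 8.96 for all measured genes, and bright probe sets differed less between the arrays in general. Among the 799 measured genes with a mean level of at least 12, 45.4% were higher and 54.3% lower, and a 1.1-fold difference was reached upwards by 4.76% and downwards by 5.13%. Of the 60 members this bright, 2 reached it upwards (3.33%), Cox8a and Atp5g2, and 0 downwards. The interquartile range of the differences was 0.074 in these 60 members and 0.095 in the 739 other genes of that brightness, against 0.17 in all measured genes. Against the other genes past this cutoff the members' spread was thus only somewhat narrower. The 2 sets were not matched in brightness, with a median level of 13.07 in the 60 members and 12.74 in the other 739 genes. The part of brightness in the spread was not tested further. The sign leaned the same way in this subset, with 35 of the 60 members higher (58.3%), against 44.4% of the other 739 genes. Their median differences were 0.019 and -0.0073.

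The median of complex I lay near 0, while those of the other complexes were slightly positive. Complex I had 17 higher and 18 lower genes among the 35 measured (median -0.0042). All 4 complex II genes were higher, with a median of 0.090. In complex III 6 of 9 genes were higher (median 0.030), in complex IV 10 of 14 (median 0.028) and in complex V 12 of 17 (median 0.033), with 4 lower and 1 identical. Beside these counts, 47.3% of all measured genes and 45.4% of the bright ones were higher, and the shares were not tested. The 10 of complex IV include Cox7a1, which reached the floor only with Wnt3a, so its direction follows from the floor. Without probe sets that can match several transcripts the median of complex IV was 0.088. This setting leaves out Cox4i1, Cox6a1, Cox7a2l and Cox7c, so the 2 medians cover different genes and cannot be compared directly. Single probe sets of the same member differed with a pooled SD of 0.11 over 47 genes and, among bright probe sets, of 0.046 over 28 genes. This SD describes single probe sets and gives no error for a median over genes, and it holds noise between probes only and not noise between cultures, labellings or hybridisations.

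**Figure D2:**
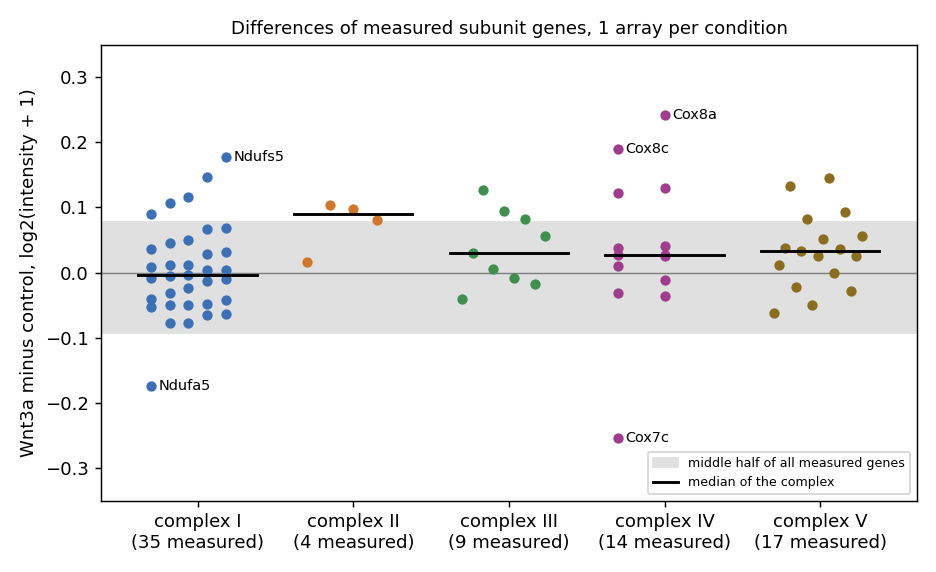
Difference of each measured subunit gene, Wnt3a minus control in log2(intensity + 1) (vertical), by complex, with a point per gene, a black line at the median of each complex and a grey band from -0.093 to 0.078 that holds the middle 50% of all measured genes. The 4 complex II points all lie above 0, the complex I points lie evenly around 0, and Cox8a, Cox8c, Ndufs5, Ndufa5 and Cox7c lie farthest out.

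The upstream sequences of complex II and of the complex I and IV members farthest from 0 are shown first, since they are where the subunits' shared promoter motifs can be seen beside the values. They are the 250 bases before the RefSeq start of each gene on GRCm38.p6, 5′ to 3′ on the gene's own strand, with matches to the 5 motifs described below in capitals. Sdhc and Cox7c are named without a sequence. Sdha lies at chr13:74350241-74350490, minus strand, Sdhb at chr4:140961021-140961270, plus strand, Sdhd at chr9:50603850-50604099, minus strand, Ndufa5 at chr6:24527691-24527940, minus strand, Ndufs5 at chr4:123718187-123718436, minus strand and Cox8a at chr19:7217617-7217866, minus strand.
Sdha: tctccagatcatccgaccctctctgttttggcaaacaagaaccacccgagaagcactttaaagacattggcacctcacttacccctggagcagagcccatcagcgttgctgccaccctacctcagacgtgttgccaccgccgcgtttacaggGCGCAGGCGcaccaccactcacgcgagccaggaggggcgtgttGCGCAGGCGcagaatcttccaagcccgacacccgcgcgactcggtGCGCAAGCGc
Sdhb: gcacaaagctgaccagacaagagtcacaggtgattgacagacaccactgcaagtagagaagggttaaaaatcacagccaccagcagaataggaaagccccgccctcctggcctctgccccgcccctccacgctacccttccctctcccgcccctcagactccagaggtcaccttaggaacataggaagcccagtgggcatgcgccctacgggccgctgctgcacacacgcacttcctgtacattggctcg
Sdhd: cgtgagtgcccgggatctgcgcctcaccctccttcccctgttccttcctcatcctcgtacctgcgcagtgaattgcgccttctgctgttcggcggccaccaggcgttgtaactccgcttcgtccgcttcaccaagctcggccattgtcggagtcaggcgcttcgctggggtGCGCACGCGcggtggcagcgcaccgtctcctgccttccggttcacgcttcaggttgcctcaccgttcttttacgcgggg
Ndufa5: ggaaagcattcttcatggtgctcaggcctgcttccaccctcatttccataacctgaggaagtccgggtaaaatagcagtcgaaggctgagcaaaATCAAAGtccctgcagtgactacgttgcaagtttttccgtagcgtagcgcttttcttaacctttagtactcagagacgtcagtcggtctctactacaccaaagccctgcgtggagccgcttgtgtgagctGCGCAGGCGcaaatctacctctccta
Ndufs5: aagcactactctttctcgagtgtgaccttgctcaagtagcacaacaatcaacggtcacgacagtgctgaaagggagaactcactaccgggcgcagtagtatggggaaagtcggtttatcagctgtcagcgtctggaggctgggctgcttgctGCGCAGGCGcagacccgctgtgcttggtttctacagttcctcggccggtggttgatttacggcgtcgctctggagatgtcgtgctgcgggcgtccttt
Cox8a: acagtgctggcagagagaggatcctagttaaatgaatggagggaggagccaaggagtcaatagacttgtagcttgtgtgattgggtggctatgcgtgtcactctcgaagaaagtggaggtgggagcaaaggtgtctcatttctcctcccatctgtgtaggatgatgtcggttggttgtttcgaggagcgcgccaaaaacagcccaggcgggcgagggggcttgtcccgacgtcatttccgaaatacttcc

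Among these, Sdha holds 3 NRF1 matches, the nearest of which begins 10 bases before the start. Sdhd and Ndufs5 hold 1 NRF1 match each, 79 and 98 bases before the start. Ndufa5 has 2 start sites in RefSeq, and the window shown, the one with more matches, holds a TCF/LEF match on the opposite strand that begins 156 bases before the start and an NRF1 match 26 bases before it. In Sdhb and Cox8a no match lies wholly within the bases shown, while Cox8a has an ETS match that runs across its start site.

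Complex II, succinate dehydrogenase, is the only complex shared with the TCA cycle and has 4 subunits, all nuclear. Sdha, the flavoprotein that oxidises succinate, was at 11.83 in the control and 11.84 with Wnt3a (difference 0.017), and its second measured probe set gave -0.085. Sdhb, the iron-sulfur subunit, went from 13.07 to 13.16 (0.098, 1 probe set). Sdhc, a membrane anchor that binds coenzyme Q, went from 12.49 to 12.59 (0.10), with 0.20 on its dimmer probe set. Sdhd, the other anchor, went from 12.04 to 12.12 (0.081), with -0.042 on its dimmer probe set. The 4 genes shared a sign on their brightest probe sets, but only Sdhb and Sdhc had no probe set at the floor that pointed the other way. All 4 differences are below 1.1-fold.

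In complex I, the NADH dehydrogenase, the catalytic core hardly differed. The 6 measured core genes, which carry the flavin, the iron-sulfur clusters or the quinone site, had a median of -0.0071. Ndufs1, the large iron-sulfur subunit, was at 11.48 in the control and 11.40 with Wnt3a (-0.078). Ndufv1, which binds NADH and the flavin, was at 12.22 and 12.21 (-0.0091), and Ndufv2, its iron-sulfur partner, at 12.98 and 12.97 (-0.0051). Ndufs3 was at 12.39 and 12.38 (-0.012). The only core genes above 0 were Ndufs7 (12.15 to 12.19, 0.036) and Ndufs8 (13.15 to 13.16, 0.012), which hold iron-sulfur clusters near the quinone site, with 0.14 on the other probe set of Ndufs7 and 0.012 to 0.093 on the 6 probe sets of Ndufs8.

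The 29 accessory genes of complex I, which surround the core and serve its assembly and stability, spread more widely around a median of 0.0040. Ndufs5 was the highest, at 11.04 in the control and 11.22 with Wnt3a (0.18, 1 probe set). Ndufb1 went from 8.41 to 8.56 (0.15, 1 probe set), and Ndufb2 from 11.85 to 11.97 (0.12), with 0.10 on a similar and -0.26 on a dim probe set. Ndufa5 was the lowest of complex I and the only accessory gene at least 1.1-fold lower. It was at 11.54 in the control and 11.37 with Wnt3a (-0.17), and its second probe set gave -0.11. Smaller negative values were those of Ndufa1 (13.12 to 13.05, -0.078), Ndufb3 (11.38 to 11.31, -0.065), Ndufb7 (12.74 to 12.67, -0.064), Ndufa2 (12.71 to 12.66, -0.053) and Ndufc2 (13.19 to 13.14, -0.050). Of these 5, only Ndufc2 and Ndufb7 had further probe sets, which ran from -0.058 to -0.032 in Ndufc2 but reached 0.091 in Ndufb7. Ndufa4, which has since been placed in complex IV, was at 12.08 and 12.03 (-0.049), and its hypoxia-induced relative Ndufa4l2 at 6.99 and 7.04 (0.050). The probe set of Ndufb4 was below the floor on both arrays, at 3.93 and 4.06.

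Complex III, the cytochrome bc1 complex, had small positive differences at most of its genes. Uqcr10, a small subunit near cytochrome c1, was the highest, at 12.25 in the control and 12.38 with Wnt3a (0.13), and its 3 probe sets ran from 0.098 to 0.13. Uqcrq went from 13.00 to 13.10 (0.094, from -0.17 to 0.19 over 4 probe sets) and Uqcr11 from 12.92 to 13.00 (0.082). Among the electron carriers, Uqcrfs1, the Rieske iron-sulfur protein, went from 13.04 to 13.10 (0.057), and Cyc1, cytochrome c1, was at 13.36 on both arrays (0.0063). The core proteins Uqcrc1 (0.030) and Uqcrc2 (-0.0086) differed in sign and by little. Uqcrb, the quinone-binding subunit, was the lowest at -0.040, with -0.063 on its other probe set.

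Complex IV, cytochrome c oxidase, held the members with the largest differences in both directions. Cox8a, the widely expressed form of subunit VIII, had an intensity of 4097 in the control and 4845 with Wnt3a, a 1.18-fold difference (0.24 on the log2 scale), and a second bright probe set gave 0.22. It is the only member with 2 bright probe sets that both exceeded 1.1-fold. Cox7c was at 6.73 and 6.48 (-0.25) on a dim probe set, the only one of its 2 that reached the floor. The other general subunits lay near 0 on their brightest probe sets: Cox4i1 went from 14.05 to 14.08 (0.026), Cox5a from 13.85 to 13.82 (-0.031), Cox5b from 14.01 to 14.04 (0.028, from -0.066 to 0.030 over 5 probe sets), Cox6a1 from 14.43 to 14.42 (-0.011), Cox6b1 from 14.07 to 14.10 (0.027) and Cox7a2 from 13.84 to 13.89 (0.041, with 0.10 on another probe set). Cox6c was at 13.12 and 13.13 (0.010), but its other probe set went from 12.04 to 11.88 (-0.16), which is past 1.1-fold. Cox7a2l, which joins complexes III and IV into supercomplexes, was at 13.06 and 13.02 (-0.035).

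The muscle and tissue-restricted forms of complex IV subunits were dim on both arrays. Levels of different probe sets cannot be compared, so the values below are read against the floor and between arrays only. Cox6a2, the heart and skeletal muscle form of subunit VIa, was at 7.07 in the control and 7.11 with Wnt3a (0.038). Cox8b, the muscle form of subunit VIII, was at 7.23 and 7.35 (0.12). Cox7a1, the muscle form of subunit VIIa, had an intensity of 57.5 in the control and 63.02 with Wnt3a (0.13 on the log2 scale) and is the member just above the floor. It counts as measured only because it reached the floor with Wnt3a, so its direction follows from the floor. The differences of all 3 were below 1.1-fold, each on 1 probe set at the floor. Cox8c, a testis form, was at 8.38 and 8.57 (0.19), but its other probe set gave -0.14. Just below the floor lay Cox4i2, a lung and hypoxia-linked form, at 5.90 and 5.33, followed by Cox6b2 at 5.46 and 5.58 and Cox7b2 at 3.64 and 3.76, both known from testis.

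Of 24 measured genes of a contractile list 17 were higher (all measured genes 47.3%) and 7 lower (51.2%), with a median of 0.057. At least 1.1-fold higher were 6 of them (background 13.4%), and 1 was at least 1.1-fold lower (16.7%). On the brightest probe sets the largest differences were those of Myh1, a fast myosin heavy chain (6.04 to 6.39, 0.35), Des, the muscle intermediate filament desmin (10.91 to 11.23, 0.32), Actn2, a Z-disc actinin (0.18), and Neb, the thin filament ruler nebulin (0.15), each on 1 probe set at the floor. With the mean of all probe sets, those below the floor included, Myh1 was at 0.10 and Des at 0.11, below Actn2 and Neb. Of 6 fibre markers 4 were measured, Acta1, Ckm, Mb and Myh1, while Myh4 and Myh7 were below the floor. The summed intensity of all 6 was 7465 in the control and 7700 with Wnt3a, most of it from Acta1 (12.74 and 12.78 on the log2 scale). Their part in the values of the muscle forms was not tested.

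In complex V all 5 genes of F1, the catalytic part, were slightly positive on their brightest probe sets. Of all measured genes, 47.3% were higher. The 5 genes of the F1 part had differences from 0.026 to 0.13, with a median of 0.037. Atp5b, the catalytic β subunit, was at 14.36 in the control and 14.39 with Wnt3a (0.037), and Atp5c1, the rotating γ subunit, at 13.78 and 13.82 (0.033, with 0.14 on a dim probe set). Atp5d went from 13.76 to 13.78 (0.026, and 0.11 on its other probe set), and Atp5e, the ε subunit, from 11.53 to 11.67 (0.13). For Atp5a1, the α subunit, the brightest probe set went from 13.69 to 13.78 (0.093), but the other 2 gave -0.43 and -0.016. Of these 5 genes, Atp5a1 alone had probe sets on both sides of 0.

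The 12 other genes of the ATP synthase were mixed, with 7 higher (all measured genes 47.3%), 4 lower (51.2%) and 1 identical. Of the 3 genes that encode the same mature c-ring protein, Atp5g2 went from 12.79 to 12.93 (0.15, and 0.49 on a dim probe set), Atp5g1 from 12.22 to 12.27 (0.051, and -0.25 on a dim probe set) and Atp5g3 from 14.22 to 14.20 (-0.021). Atp5o, the stalk subunit OSCP, went from 13.39 to 13.47 (0.082, with -0.0048 on its other probe set). The stalk genes Atp5h (13.45 to 13.39, -0.061) and Atp5pb (13.45 to 13.40, -0.049) were the lowest, and each had a second bright probe set of the opposite sign (0.038 and 0.033). Atp5j had the same deposited intensity on both arrays, 9216.

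Probe sets of the same gene often disagreed in sign, as differences this close to 0 allow. Of the 47 members with at least 2 probe sets at the floor, 17 had all of them on 1 side of 0 (36.2%), against 54.7% of 5084 genes of the whole array. In 29 members they lay on both sides and in 1, Ndufa7 (0.090), a probe set was identical on both arrays. The 29 were Ndufa10, Ndufa12, Ndufab1, Ndufb2, Ndufb7, Ndufb8, Ndufb9, Ndufb11, Ndufc1, Ndufs4, Ndufv1 and Ndufv2 of complex I, Sdha and Sdhd of complex II, Uqcrh and Uqcrq of complex III, Cox5a, Cox5b, Cox6a1, Cox6c, Cox7a2l and Cox8c of complex IV, and Atp5a1, Atp5g1, Atp5h, Atp5j2, Atp5k, Atp5o and Atp5pb of complex V. The widest disagreements involved a dim probe set. Ndufa12 ran from -0.37 to 0.0081, Ndufab1 from -0.22 to 0.27 and Atp5a1 from -0.43 to 0.093. Bright probe sets alone also often disagreed in sign. Of the 28 members with at least 2 bright ones, 13 had all of them on 1 side of 0 (46.4%), against 59.1% of 242 genes. In Ndufc1, for example, they were at -0.048 and 0.12. Among all 156 subunit probe sets at the floor 94 were higher, with a median of 0.026. Among the 99 bright ones 60 were higher, also with a median of 0.026. Probe sets of the same gene are counted separately here, so these counts are no independent support for a direction. The share over all probe sets was not computed. By gene, 47.3% of all measured genes and 45.4% of the bright ones were higher.

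**Figure D3:**
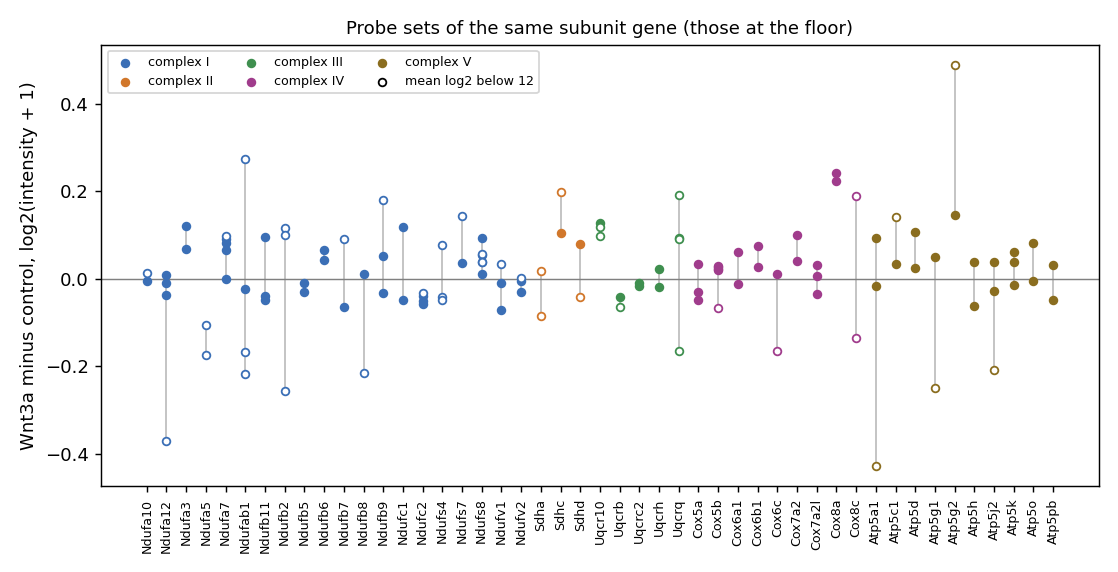
Differences, Wnt3a minus control in log2(intensity + 1) (vertical), of every probe set at the floor for the 47 subunit genes that have at least 2 (horizontal, ordered by complex); filled points are probe sets with a mean level of at least 12, open points dimmer ones, and grey lines join the probe sets of a gene. Filled points of a gene lie closer together (pooled SD 0.046, against 0.11 with the open points) but often on both sides of 0. The lowest point (Atp5a1, -0.43) and the highest (Atp5g2, 0.49) are open.

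Transcription factor motifs known from respiratory chain genes were counted in RefSeq promoter windows of 300 bases, 250 before and 50 after each start, on both strands. Windows were found for 67 of the 83 members (72 windows, 5 genes with 2 start sites). An NRF1 motif, GCGCANGCG, occurred in 19 of the 72 windows (26.4%), both windows of Ndufa5 among them, against 6.25% of all 32851 windows. A YY1 motif, AAGATGGC, occurred in 12.5% against 2.75%, an ETS motif of the GABPA type, CCGGAAGT, in 6.94% against 3.89%, and the motif of the oestrogen-related receptors, TCAAGGTCA, in 2 windows (2.78%), those of Sdhd and Atp5g3, against 0.423%. The TCF/LEF motif, CTTTGAT, through which β-catenin acts, occurred in 1 of the 72 windows (1.39%), that of Ndufa5, against 3.73% of all. No matches of different motifs overlapped in the subunit windows.

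Median differences of measured members with and without each motif were not tested against each other. The 17 measured members with an NRF1 match had a median difference of 0.033 and ranged from -0.17 (Ndufa5) to 0.18 (Ndufs5), and the 47 without had one of 0.0081. The 9 with a YY1 match had a median of 0 and the 55 without one of 0.027. The 5 with an ETS match, which include Cox8a, had a median of -0.012, against 0.026 in the 59 without. The 2 with an ERR match had a median of 0.030, against 0.021 in the 62 without. The TCF/LEF match belongs to Ndufa5 alone (-0.17), and the 63 without one had a median of 0.026. These are descriptions of letters in a window beside single measurements.

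On brightest probe sets, a few regulators of mitochondrial biogenesis differed more than any measured subunit, in both directions. Ppargc1a, which encodes PGC-1α, was below the floor in the control at 5.22 and at 7.71 with Wnt3a, at least 3.27-fold higher against the floor, and its 5 probe sets ran from 2.33 to 2.89. Ppargc1b, its relative PGC-1β, went from 9.82 to 9.40 (-0.42, 1 probe set). Tfb2m, a mitochondrial transcription factor, went from 10.64 to 10.32 (-0.32, 1 probe set). Tfam, which packages mitochondrial DNA and serves its transcription, went from 10.41 to 10.10 (-0.31). Its other probe set gave -0.032 and the mean of both -0.17. Several factors whose motifs were counted lay nearer to 0 on their brightest probe sets. Nrf1 was at 0.096, Gabpa at -0.044, Esrra at 0.023, Esrrb at 0.14 and Yy1 at -0.11. Over their probe sets at the floor, Nrf1 ran from -0.035 to 0.096 and Yy1 from -0.11 to 0.20. Of the 22 measured regulators 8 were higher (all measured genes 47.3%) and 13 lower (51.2%), with a median of -0.015. Of these 22 regulators, 2 were higher by at least 1.1-fold, Ppargc1a and Esrrb (background 13.4%), and 5 lower by that much (16.7%). The large difference in Ppargc1a at 4 hours stood beside differences of the measured subunits that were all below 1.2-fold on their brightest probe sets.

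Assembly factors, which build the complexes but are not part of them, leaned lower. Among the 40 measured, 30 were lower (all measured genes 51.2%) and 10 higher (47.3%), with a median of -0.042. A 1.1-fold difference was reached downwards by 8 of the 40 and upwards by 0, where the background shares were 16.7% and 13.4%. The downward share is thus close to its background. The largest differences were those of Coa7, a complex IV assembly factor (9.32 to 9.09, -0.23), Sdhaf1, which serves complex II (9.85 to 9.64, -0.20), Tmem70, which serves the ATP synthase (10.61 to 10.42, -0.19), and Ndufaf4, which serves complex I (11.03 to 10.85, -0.18). The second probe sets of Coa7 and Ndufaf4 gave -0.32 and -0.26. The subunits had 62.0% of members higher and the assembly factors 10 of 40, a difference that was not tested.

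The genes that feed or surround the respiratory chain lay close to 0. For the counts below, 47.3% of all measured genes were higher and 51.2% lower. Of 19 measured genes for cytochrome c, carriers and channels 9 were higher and 10 lower (median -0.010). Cycs, cytochrome c itself, was at 13.69 and 13.64 (-0.049), and the largest differences were those of Ucp3, an uncoupling protein (-0.19), Slc25a11, the oxoglutarate carrier (0.14), Atpif1, the inhibitor of the ATP synthase (-0.14), and Vdac1, an outer membrane channel (0.12). Of 17 measured genes of the TCA cycle and pyruvate dehydrogenase 8 were higher and 9 lower (median -0.0041), with Dld (-0.22), Sucla2 (-0.18), Suclg2 (-0.16) and Mdh2 (-0.12) the farthest from 0. Of 11 measured genes of coenzyme Q synthesis and handling 5 were higher and 5 lower (median 0), led by Coq8b (0.20), Coq10b (-0.17), Coq10a (0.13, but -0.076 for the mean of its probe sets) and Coq2 (-0.12).

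**Figure D4:**
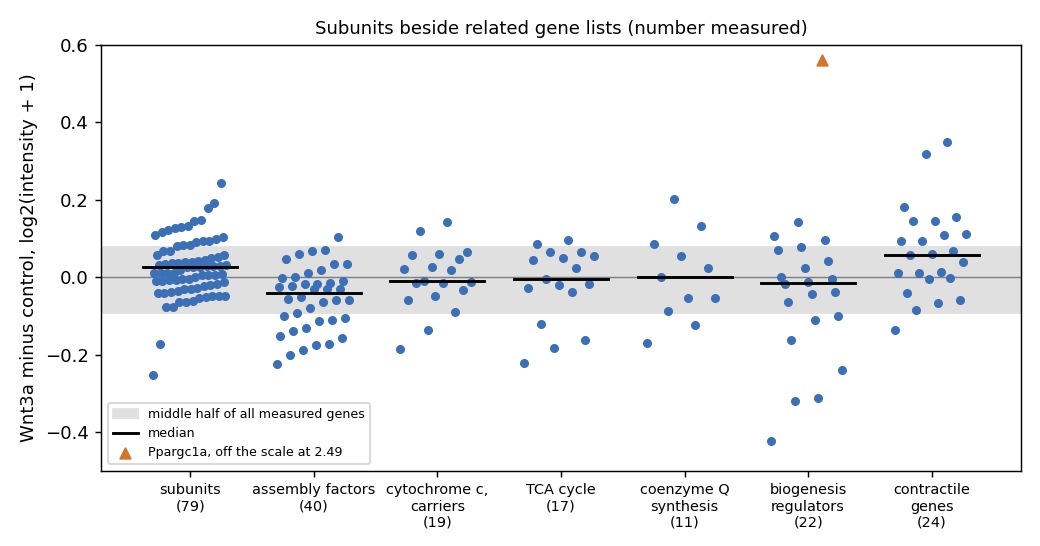
Difference of each measured gene, Wnt3a minus control in log2(intensity + 1) (vertical), in the subunits and 6 related lists (number measured below each name), with a black line at each median and a grey band for the middle 50% of all measured genes. The subunits (median 0.026) lie slightly above and the assembly factors (median -0.042) slightly below 0, and Ppargc1a, at 2.49, is drawn as a triangle at the top edge.

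All of these directions take the arrays as deposited, with most genes near a difference of 0. All 42 spike-in control probe sets, which track labelling and hybridisation, were lower on the Wnt3a array, with a median of -0.19. Scaling on them adds 0.19 to each difference and would turn 28 of the 29 negative subunit differences positive, and it would move the median of all measured genes to 0.19 and that of the subunits to 0.21. This scaling adds the same amount to the subunits and to all other genes.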

How the data were processed

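RNA from 2 cultures was measured on Affymetrix arrays, 1 per condition. Biotin-labelled cRNA was made with a 3′ kit, per the labels' protocols. The deposited table holds 1 linear intensity per probe set and array (7.09 to 37075 in the control, 7.07 to 36604 with Wnt3a). Per the submitters' processing notes, the authors used RMA, affy and limma; versions, the step back to a linear scale and the genome build are not given in the sources used here. RMA in general quantile normalizes the arrays, which removes overall differences between them.

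Values were taken as log2(intensity + 1), with 1 probe set per gene (the highest mean over both arrays), and genes came from GEO's platform annotation (34945 probe sets with 1 gene, 64 control probe sets left out). For all 83 members the Entrez identifier was found in RefSeq (GRCm38.p6), and no symbol changed. The number of arrays limits the precision, and no p-value can be given. Members, lists and the rule for named genes (core subunits, isoform families, the 10 highest and 10 lowest members, members whose probe sets disagree, and up to 4 genes of each related list with Ppargc1a) were chosen with earlier results of these data known. Alternatives were no floor, a floor of 8, a mean over a gene's probe sets, omission of probe sets open to several transcripts (suffixes _a, _s and _x), a median difference of 0, quantile normalization, removal of a loess trend (span 0.3), scaling on spike-ins, no pseudocount and a 1.2-fold threshold. The procedure was tested on simulated data with known shifts. Software was matplotlib 3.10.9, statsmodels 0.14.6, pandas 2.3.3 and numpy 2.4.6 under Python 3.11.15.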

Additional observations from a re-analysis of the deposited data

How the results depend on the processing

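No paired analysis was possible because each condition has 1 array. Spike-in scaling moved every median by 0.19, to 0.21 for the 79 members, 0.19 for complex I, 0.28 for complex II, 0.22 each for complexes III, IV and V, 0.15 for assembly factors, 0.18 for biogenesis regulators, 0.18 for cytochrome c and carriers, 0.19 for the TCA cycle, 0.19 for coenzyme Q synthesis and 0.25 for contractile genes. It left 78 members higher and 1 lower, with 71 past 1.1-fold upwards and 0 downwards, and gave 90.4% of all measured genes higher. Under it Ndufa5 became 0.016, Coq10b 0.020, Ndufaf4 0.013, Sucla2 0.00598, Suclg2 0.027, Tmem70 0.0018 and Ucp3 0.0028. Under the other settings the median of the members ran from 0.014 to 0.037 and that of complex I from -0.0060 to 0.016. That of complex II ran from 0.064 to 0.096, with all of its measured genes higher in each setting. Without probe sets that can match several transcripts these were 3 genes, since Sdhc had no probe set left. The median of complex III ran from 0.023 to 0.037, that of complex IV from 0.026 to 0.088 and that of complex V from 0.026 to 0.040. Medians of the lists ran from -0.058 to -0.023 in assembly factors, -0.055 to -0.0031 in regulators, -0.010 to 0.010 in carriers, -0.011 to 0.028 in the TCA cycle, -0.055 to 0.020 in coenzyme Q synthesis and 0.026 to 0.076 in contractile genes. Without probe sets that can match several transcripts, 62 members were measured, 43 higher and 18 lower, with 7 at least 1.1-fold higher and 6 lower by that much. Over all settings but spike-in scaling, 44.5% to 51.1% of all measured genes were higher. Their shares past 1.1-fold are not given for this setting. The 6 (Atp5g1, Ndufa12, Ndufab1, Ndufb2, Ndufb8 and Uqcrq) were read there from dim probe sets, with control levels from 6.03 (Atp5g1) to 7.81 (Ndufab1). So was Atp5c1 (6.26), among the 7. A floor of 8 left 1 member at least 1.1-fold lower. A 1.2-fold threshold was applied to the main setting only, where 0 were higher and 0 lower. Other settings did give values past 1.2-fold. Ndufa12 came to -0.37 without probe sets that can match several transcripts, and Cox8a to 0.43 with spike-in scaling. With the mean of all probe sets 18 of 90 named genes changed sign, Dld to 0.0053, Sucla2 to 0.047, Coq10a to -0.076, Atp5a1 to -0.12 and Ndufb2 to -0.013 among them, while Myh1 came to 0.10, Des to 0.11, Cox8c to 0.028 and Tfam to -0.17. Without probe sets that can match several transcripts 16 of 73 changed sign, Ndufb2 to -0.26 and Uqcrq to -0.17 among them. No measured member differed by 1.5-fold in any setting, but Cox4i2, below the floor, reached -0.63 with the loess trend removed. A result was taken as moved when it shifted by more than the pooled SD between members' probe sets (0.11), or a count by over 1.5 times, since there are no replicates. That SD is of single probe sets and is a loose limit for a median, which can change severalfold within it. The brightness of dim probe sets limits what can be said of the tissue-restricted forms.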
